A study of Homo sapiens with 14 samples.

Results

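NOTCH receptors and their direct target genes were followed across 14 RNA sequencing libraries of Jurkat, a human TAL1-positive T-cell acute lymphoblastic leukaemia (T-ALL) line. The genes were the 10 rows of the count table whose Ensembl identifiers map to *NOTCH1*, *NOTCH3*, *HES1*, *HES4*, *HEY1*, *NRARP*, *DTX1*, *PTCRA*, *SHQ1* and *IGF1R*, out of 61541 genes in all. They were taken by gene symbol, and all 10 passed the filter on low counts. Cells given the KSR inhibitor APS-2-79 (called KSRi, n = 3) had cells given the solvent DMSO (n = 3) as controls. Cells carrying guide 1 (n = 3) or guide 2 (n = 3) against *KSR2* had cells with a non-targeting guide (NT, n = 2) as controls. The labels disagree on the genetic method: a knockout by CRISPR in the titles, interference in the design text, and a hairpin in the NT library names. The sources used here do not give the inhibitor dose, exposure time, guide sequences or whether cells were clonal. All groups are the same cell line. Whether replicates came from separate cultures is not stated either, and each p-value therefore reflects the spread among libraries, which may be technical.

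NOTCH receptors are cut by ADAM proteases and gamma-secretase after a ligand on a neighbouring cell binds them. The freed intracellular part enters the nucleus, joins the DNA-binding protein RBPJ and a MAML coactivator, and switches on target genes, and it is then degraded through the ubiquitin ligase FBXW7. NOTCH1 drives early T-cell commitment and is activated by mutation in many cases of T-ALL, and Jurkat is known to carry an activated *NOTCH1* allele and a mutated *FBXW7*. KSR2 is a scaffold of a different pathway, the RAF, MEK and ERK kinase cascade, and APS-2-79 is a small molecule that stabilises an inactive state of KSR proteins.

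Library totals ran from 21710466 to 45897075 counts. CPM are counts divided by the TMM-scaled library size in megareads, given as mean ± SD. *KSR2* itself, the target of the guides, stood at 29.5 ± 0.786 CPM with NT (n = 2). With guides 1 and 2 it stood at 0.541 ± 0.110 and 0.766 ± 0.0492 CPM (n = 3 each). In DMSO and KSRi *KSR2* stood at 36.96 and 34.26 CPM, and NT was below DMSO (edgeR log2 difference −0.325, adjusted p = 0.00327). *KSR1* was higher in KSRi than in DMSO (edgeR log2 change 0.558, adjusted p = 6.15e-05). It was also higher in NT than in DMSO (0.482, adjusted p = 0.000202). Of the T-lineage markers 14 of 14 passed the low-count filter. Their summed level was 2723 to 2808 CPM in DMSO, 2718 to 3444 CPM in KSRi and 2532 to 2878 CPM in the other groups. Single markers went both ways (edgeR adjusted p under 0.05). Against DMSO 5 of 14 were higher and 1 lower in KSRi, beside 22% and 18.7% of all tested genes. In NT 6 of 14 were higher and 4 lower than in DMSO, beside 34.6% and 31.2%. *TAL1* was present in every library (245 to 376 CPM). Summed myeloid markers reached 0.880 CPM and summed erythroid markers 1.38 CPM at most, and summed NK markers were at 1.97 to 4.39 CPM. Of 5 stromal markers 2 were tested. Both were higher in KSRi than in DMSO, *COL1A1* (log2 change 0.78, edgeR adjusted p = 0.000361) and the scarce *PDGFRB* (1.52, adjusted p = 0.0146). Over all tested genes 22% were higher there. *PDGFRB* stood at 0.10 to 0.17 CPM in DMSO, 0.30 to 0.54 CPM in KSRi and 0.94 and 0.45 CPM in NT. In NT 1 of the 2 stromal markers was called higher than in DMSO, beside 34.6% of all tested genes. The summed stromal level was 6.12 to 6.70 CPM in DMSO, 9.06 to 13.9 CPM in KSRi and 6.28 to 8.65 CPM in the other groups, and its part in the results was not tested. Of the B-cell markers *CD79A* alone was tested (22.3 CPM in DMSO and 57.3 CPM in NT), and *MS4A1*, *CD79B*, *PAX5* and *CD22* stayed at 0.0914 CPM or below in every library. KSRi replicate 1 stood apart from its group, with a chi-square per degree of freedom of 33.2 and 45.04 against the other KSRi libraries. These differed by 15.8, and DMSO libraries by 5.46 to 7.32. Guide 2 replicate 3 also stood apart, with 24.84 and 17.41 against the other guide 2 libraries, which differed by 8.81. Guide 1 libraries differed by 7.27 to 13.4 and NT libraries by 9.23. The share of mitochondrial transcripts was 1.27% to 1.45% in DMSO, 1.12% to 2.51% in KSRi (highest in replicate 1) and 1.15% to 2.71% in the other groups, and its part in the results was not tested. In bulk RNA, fewer cells with a transcript and less of it per cell cannot be told apart.

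Per kilobase of exon the 10 genes covered a wide range of levels. In DMSO the order, in CPM per kilobase, was *HES4* 55.4, *SHQ1* 46.4, *DTX1* 29.03, *NOTCH1* 24.8, *NOTCH3* 21.8, *IGF1R* 11.1, *HES1* 8.68, *PTCRA* 8.52, *NRARP* 0.308 and *HEY1* 0.293. Along this order the neighbours *HES1* and *PTCRA* lay within their spread of each other, as did *NRARP* and *HEY1*. With NT the order was different, since *NOTCH1* (13.6), *SHQ1* (13.5) and *NOTCH3* (13.1 CPM per kilobase) lay within their spread of each other behind *HES4* (23.5), and *HES1* had gone to 1.00 CPM per kilobase, below *PTCRA* (4.10). *HEY1* and *NRARP* rested on few reads, with 3 to 35 and 7 to 37 counts per library.

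**Figure D1:**
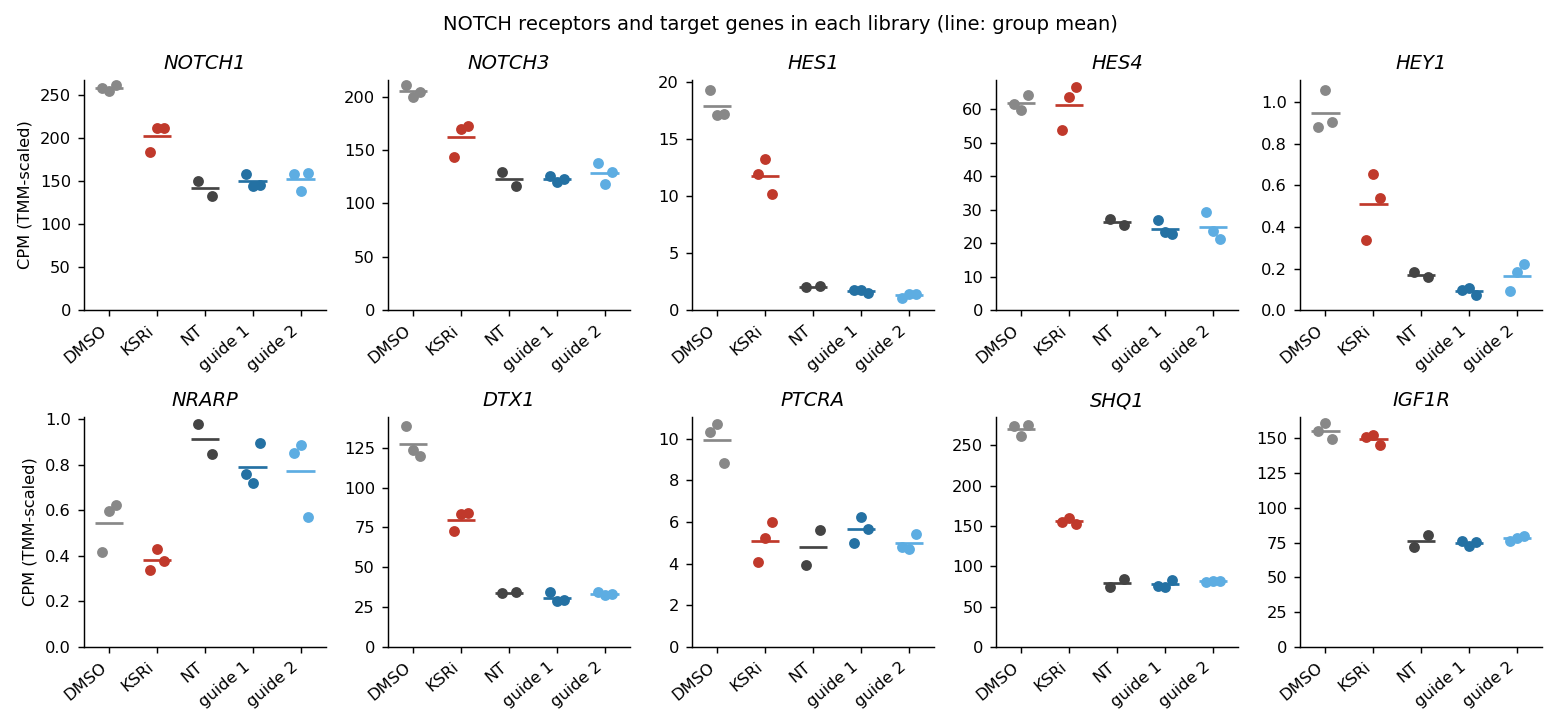
Level of each gene in every library, in CPM scaled by TMM factors on axes that start at 0. Points are libraries, lines are group means, and columns are DMSO, KSRi, NT, guide 1 and guide 2. For most genes DMSO is highest, KSRi lies between and the 3 groups with guides are lowest, while *HES4* and *IGF1R* overlap between DMSO and KSRi, *PTCRA* overlaps between KSRi and the groups with guides, and *NRARP* has its highest value in NT.

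The comparison of KSRi with DMSO asked how the genes responded to the inhibitor. The 2 receptors and 5 of the 8 target genes fell, 0 rose, and *HES4*, *NRARP* and *IGF1R* did not pass the test. Beside these 7 of 10, 40.7% of all 18963 tested genes passed in either direction, 18.7% lower and 22% higher (edgeR quasi-likelihood test, adjusted p under 0.05). The median log2 change of the 10 genes was −0.56, beside 0.02 over all tested genes. The libraries of KSRi and DMSO did not overlap for the same number of genes, 7, all lower, and this held for 46.9% of all tested genes in either direction and 21.9% in the lower direction.

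Both receptors were modestly lower with the inhibitor. *NOTCH1* (ENSG00000148400; chromosome 9, 136494433 to 136545786, minus strand, GRCh38), the main NOTCH receptor of early T cells, stood at 258, 254.5 and 261 CPM in DMSO and at 184, 212 and 212 CPM in KSRi. All KSRi libraries were below all DMSO libraries, with replicate 1 the lowest. KSRi was 1.27-fold lower (edgeR log2 change −0.35, SE 0.08, adjusted p = 0.00186). *NOTCH3* (ENSG00000074181; chromosome 19, 15159038 to 15200981, minus strand), a receptor that is also a target of NOTCH1 in T-ALL, was at 211, 200 and 204 CPM in DMSO and at 143, 170 and 173 CPM in KSRi. Again replicate 1 was the lowest KSRi library and the groups did not overlap (1.27-fold, log2 change −0.34, SE 0.08, edgeR adjusted p = 0.00226). Without KSRi replicate 1 the count of genes that fell was 6 in place of 7. *NOTCH1* then changed by −0.28 (edgeR adjusted p = 0.00318) and *NOTCH3* by −0.26 (adjusted p = 0.00359) on the log2 scale.

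The HES and HEY genes encode basic helix-loop-helix repressors that RBPJ switches on, and they differed from each other. *HES1* and *HES4* each carry the RBPJ core TGGGAA close to their start, and these sequences are shown because *HES1* fell and *HES4* did not pass the test. Among 250 bases before the RefSeq start (GRCh38.p14), searched on both strands, 2 of the 8 genes with a RefSeq promoter entry held TGGGAA, beside 20.8% of 35116 promoters. *HEY1* and *DTX1* had no entry. *HES1* had 2 matches, 14 bases apart from start to start, and 2.9% of promoters had 2 or more. The longer form GTGGGAA, which contains the core, was in *HES1* and *HES4* and in 5.43% of promoters. A match is a description of these letters and not a measured binding site. Only these 2 forms were searched, so other forms of an RBPJ site are not marked. The *HES1* sequence runs 5′ to 3′ over chr3:194135898-194136144 (plus strand, 247 bases, up to the annotated transcript start), and the windows of 30 bases are chr3:194136059-194136088 (plus strand) and chr1:1000149-1000178 (minus strand), with TGGGAA in capitals. The RefSeq start of *HES4* lies downstream of the gene's first base in GENCODE, so most of its window falls inside the GENCODE gene, whereas the *HES1* sequence ends before it.
HES1 promoter: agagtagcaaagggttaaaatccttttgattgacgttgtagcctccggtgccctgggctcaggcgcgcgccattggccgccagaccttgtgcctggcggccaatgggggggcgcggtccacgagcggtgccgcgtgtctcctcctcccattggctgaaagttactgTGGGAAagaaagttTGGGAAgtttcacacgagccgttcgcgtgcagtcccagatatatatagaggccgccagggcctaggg
HES1 window: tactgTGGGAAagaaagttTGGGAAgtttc
HES4 window: gagtgTGGGAAagaatgcggagccgggttc
Both windows were cut at the same distance before the first TGGGAA, so the positions of that match are identical by construction. Counting these, the windows were identical at 19 of 30 positions, and no such count was made for other promoters. *HES4* lacked the second TGGGAA match of *HES1*. Whether this bears on the different changes of the genes was not tested.

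*HES1* (ENSG00000114315; chromosome 3, 194136145 to 194138732, plus strand), the best-known NOTCH target, stood at 19.3, 17.2 and 17.2 CPM in DMSO and at 11.9, 13.2 and 10.2 CPM in KSRi. The groups did not overlap, and KSRi was 1.504-fold lower (edgeR log2 change −0.59, SE 0.10, adjusted p = 0.000227). *HES4* (ENSG00000188290; chromosome 1, 998962 to 1000172, minus strand), a human HES gene without a mouse counterpart, was at 61.7, 59.6 and 64.4 CPM in DMSO and at 53.8, 63.6 and 66.5 CPM in KSRi. Its groups overlapped, and the log2 change was −0.02 with a 95% interval from −0.24 to 0.21 (edgeR adjusted p = 0.925). Without KSRi replicate 1 the value was 0.07, and without DMSO replicate 3 it was 0.01. *HEY1* (ENSG00000164683; chromosome 8, 79764010 to 79767863, minus strand), the HES-related repressor, was scarce at 0.880, 1.06 and 0.906 CPM in DMSO and 0.336, 0.655 and 0.537 CPM in KSRi. Its fall of 1.82-fold (log2 change −0.87, SE 0.26, edgeR adjusted p = 0.0131) lost its call without KSRi replicate 1 (adjusted p = 0.0654) or DMSO replicate 2 (adjusted p = 0.0506), and DESeq2 did not call it (adjusted p = 0.0673).

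Next came the genes whose products feed back on NOTCH signalling. *DTX1* (ENSG00000135144; chromosome 12, 113056709 to 113098028, plus strand), the ubiquitin ligase Deltex 1, was at 139, 123 and 120 CPM in DMSO and at 72.6, 83.2 and 84.0 CPM in KSRi. Every KSRi library was below every DMSO library, a 1.59-fold fall (log2 change −0.67, SE 0.08, edgeR adjusted p = 6.92e-06). *NRARP* (ENSG00000198435; chromosome 9, 137300482 to 137302251, minus strand), an ankyrin-repeat protein that joins and restrains the NOTCH nuclear complex, stood at 0.419, 0.595 and 0.621 CPM in DMSO and at 0.336, 0.428 and 0.376 CPM in KSRi. Its groups overlapped, the log2 change was −0.53 with an interval from −1.15 to 0.09, and the gene was not called (edgeR adjusted p = 0.16), with 7 to 24 counts behind each of these values.

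The last 3 genes serve T-cell development and growth, and they split. *PTCRA* (ENSG00000171611; chromosome 6, 42915989 to 42925835, plus strand) encodes the pre-T-cell receptor alpha chain. It went from 10.3, 10.7 and 8.85 CPM in DMSO to 4.06, 5.22 and 6.02 CPM in KSRi. This was the largest change among the 10 genes, a 1.97-fold fall with no overlap (log2 change −0.98, SE 0.15, edgeR adjusted p = 6.63e-05). *SHQ1* (ENSG00000144736; chromosome 3, 72749277 to 72861914, minus strand), an assembly factor for H/ACA ribonucleoproteins, had the lowest p. It stood at 275, 262 and 275 CPM in DMSO and at 155, 159 and 153 CPM in KSRi, so the libraries were tightly grouped and far apart (1.74-fold lower, log2 change −0.80, SE 0.06, edgeR adjusted p = 7.98e-08). *IGF1R* (ENSG00000140443; chromosome 15, 98648539 to 98964530, plus strand), the insulin-like growth factor receptor, was at 155, 161 and 149.5 CPM in DMSO and at 151, 152 and 145 CPM in KSRi. Its groups overlapped, and the log2 change of −0.05 had an interval from −0.18 to 0.07 (edgeR adjusted p = 0.512).

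**Figure D2:**
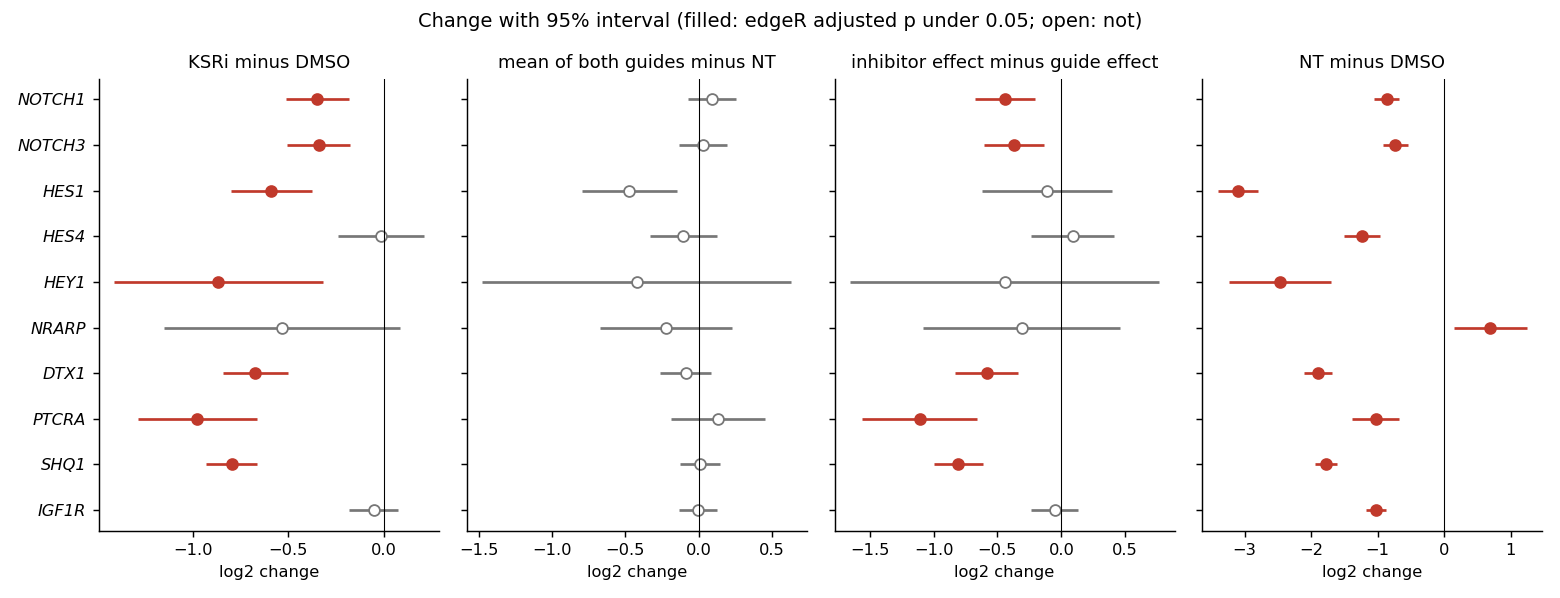
Log2 change of each gene with its 95% interval in 4 comparisons, each panel on its own axis. Filled points passed the edgeR test at an adjusted p under 0.05. With the inhibitor 7 of 10 are filled and all lie below 0, with the guides 0 are filled, and the intervals of *HEY1* and *NRARP* are the widest.

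The guides asked whether loss of *KSR2* transcript moved the same genes. Of the 10 genes 0 passed the test with guide 1, with guide 2 or with their mean against NT. Over all tested genes 0.00527%, 0.0105% and 0.0158% passed by edgeR, which is 1, 2 and 3 genes. *KSR2*, the target of the guides, was among them each time (edgeR adjusted p = 6.89e-15, 1.48e-14 and 1.65e-16). DESeq2 and limma-voom also called 0 of the 10. At an unadjusted p under 0.05 there were 0 members for guide 1, 1 for guide 2 and 1 for the mean of both guides, and each time it was *HES1*. The background at that level was 4.64%, 3.6% and 4.16% of all genes.

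*HES1* had the lowest unadjusted p of the 10 genes under the guides, 0.00685 for the mean of both, and it was not called after adjustment (edgeR). It stood at 2.03 and 2.12 CPM with NT, at 1.75, 1.78 and 1.52 CPM with guide 1 and at 1.10, 1.41 and 1.43 CPM with guide 2. All 6 guide libraries were below both NT libraries, a pattern that 5.15% of all tested genes showed in the lower direction. The log2 change for the mean of both guides was −0.48 with a 95% interval from −0.80 to −0.15 (edgeR adjusted p = 0.989). For guide 1 alone it was −0.30 (adjusted p = 0.951) and for guide 2 alone −0.65 (adjusted p = 1.00). These values rest on 36 to 80 counts per library. Guide 2 was below guide 1 in every library (log2 difference −0.35, interval −0.68 to −0.01, edgeR adjusted p = 1.00), a lower separation shared by 5.18% of tested genes. In that comparison of the guides 0 of 10 genes passed, 1 had an unadjusted p under 0.05 (*HES1*), and over all genes these shares were 0.00527% and 3.24%.

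For the more abundant genes the intervals were narrow. The mean of both guides differed from NT by 0.09 for *NOTCH1* (interval −0.07 to 0.26), 0.03 for *NOTCH3* (−0.13 to 0.20), 0.01 for *SHQ1* (−0.12 to 0.15) and 0.00 for *IGF1R* (−0.13 to 0.13) on the log2 scale. *DTX1* differed by −0.09 (−0.26 to 0.09), *HES4* by −0.10 (−0.33 to 0.13) and *PTCRA* by 0.13 (−0.19 to 0.45). *NOTCH1* stood at 151 and 132 CPM with NT, at 158.5, 144.5 and 145 CPM with guide 1 and at 158, 138 and 159 CPM with guide 2, so 3 of the 6 guide libraries lay inside the NT range and 3 above it. *SHQ1* stood at 74.0 and 83.9 CPM with NT, and the 6 guide libraries lay between 74.7 and 82.7 CPM, all inside the NT range. For *HEY1* the interval ran from −1.48 to 0.64 and for *NRARP* from −0.67 to 0.23, and these intervals include the inhibitor's log2 changes of −0.87 and −0.53.

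The inhibitor effect minus the mean guide effect was tested directly. Each effect was measured from its own control, and NT was below DMSO at 9 of 10 genes. *SHQ1*, for instance, stood at 78.9 CPM in NT and 156 CPM in KSRi. A different response to the inhibitor and the guides therefore cannot be told apart from the different starting levels. The difference passed for 5 of 10 genes, all with a lower value for the inhibitor, while 28.6% of all tested genes passed in either direction and 12.1% in the lower direction. They were *PTCRA* (log2 difference −1.11, SE 0.21, edgeR adjusted p = 0.00109), *SHQ1* (−0.81, SE 0.09, adjusted p = 9.38e-06), *DTX1* (−0.58, SE 0.12, adjusted p = 0.00155), *NOTCH1* (−0.44, SE 0.11, adjusted p = 0.00711) and *NOTCH3* (−0.37, SE 0.11, adjusted p = 0.0193). Without NT replicate 2 the receptors lost this call (adjusted p = 0.0676 for *NOTCH1* and 0.126 for *NOTCH3*) and 3 genes were left. For *HES1* the inhibitor effect (−0.59) and the guide effect (−0.48) differed by −0.11, with an interval from −0.62 to 0.39 (adjusted p = 0.761). That interval does not show that the effects were alike.

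The controls of the 2 arms were far apart for these genes. NT was below DMSO at 9 of 10 genes and above it at *NRARP*, where 65.8% of all tested genes passed (34.6% higher, 31.2% lower). By TMM scaling 52.6% of those calls over all genes were higher in NT, and without scaling factors 69.9% were, with the 10 genes at 9 lower and 1 higher both times. *HES1* differed most, with 17.9 ± 1.22 CPM in DMSO (SD, n = 3) and 2.07 ± 0.0632 CPM in NT (n = 2), 8.59-fold lower (log2 difference −3.10, SE 0.14, edgeR adjusted p = 1.63e-11). *HEY1* was 5.54-fold, *DTX1* 3.72-fold, *SHQ1* 3.43-fold, *HES4* 2.36-fold, *PTCRA* 2.04-fold, *IGF1R* 2.03-fold, *NOTCH1* 1.82-fold and *NOTCH3* 1.67-fold lower in NT. *NRARP* was higher, at 0.912 ± 0.0925 CPM in NT and 0.545 ± 0.110 CPM in DMSO (log2 difference 0.69, SE 0.26, edgeR adjusted p = 0.0278). That call was lost with DESeq2 (adjusted p = 0.104), with the replicate number as a block (adjusted p = 0.0528), and without NT replicate 1 or 2 or DMSO replicate 1 (adjusted p = 0.132, 0.0578 and 0.0837). The summed B-cell marker level also differed (21.8 to 25.0 CPM in DMSO and KSRi, 43.6 to 68.0 CPM in the groups with guides). By edgeR 1 of 1 tested B-cell, 2 of 2 NK and 1 of 1 erythroid markers were higher in NT than in DMSO. The 1 tested myeloid marker was lower. These counts stand beside the 34.6% higher and 31.2% lower over all genes, and the part of these markers was not tested. NT cells carry a guide and DMSO cells were given solvent. Whether NT cells also had solvent is not stated. Nor is it stated whether the arms differ in vector, selection, culture or library batch. The sources of the difference cannot be told apart. The comparison of KSRi with DMSO and that of NT with DMSO share the DMSO libraries, and their values stand side by side here without a test of likeness.

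Across all 5 groups the genes fell into 4 patterns. *NOTCH1*, *NOTCH3*, *HES1*, *HEY1*, *DTX1* and *SHQ1* were highest in DMSO, intermediate in KSRi and lowest in the groups with guides, with no overlap between these 3 levels. *HES4* and *IGF1R* had DMSO and KSRi overlapping and well above NT and the guides. *PTCRA* was high in DMSO alone, and KSRi (4.06 to 6.02 CPM) overlapped with NT (3.94 and 5.63 CPM), guide 1 (5.00 to 6.26 CPM) and guide 2 (4.72 to 5.44 CPM). *NRARP* ran the other way, with DMSO (0.419 to 0.621 CPM) and KSRi (0.336 to 0.428 CPM) below NT (0.846 and 0.977 CPM) and guide 1 (0.719 to 0.894 CPM), while guide 2 (0.571 to 0.887 CPM) overlapped with DMSO. The 5 genes whose group means, centred on log2 CPM, lay nearest to those of *NOTCH1* among 11062 genes of at least 5 CPM with a symbol were *CGN*, *CAND1*, *ACAD9*, *PSME4* and *RPP30*, at Euclidean distances of 0.0283 to 0.0435 over the 5 groups. *NOTCH1* itself had centred values of 0.56 in DMSO, 0.20 in KSRi, −0.31 in NT, −0.23 with guide 1 and −0.21 with guide 2.

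The rest of the pathway was examined through lists ordered by role, in the comparison of KSRi with DMSO. Each count is to be read against all tested genes, of which 22% were higher, 18.7% lower and 40.7% either. Ligands moved both ways, with 2 of 5 tested higher and 1 lower (median log2 change 0.44, beside 0.02 over all tested genes). *DLL1* rose from 0.40 to 1.05 CPM (edgeR log2 change 1.31, SE 0.27, adjusted p = 0.00107) and *JAG2* from 7.02 to 10.9 CPM (0.61, SE 0.12, adjusted p = 0.00105). *JAG1* fell from 2.03 to 1.32 CPM (−0.64, SE 0.15, adjusted p = 0.00331), and *DLK2*, a ligand-like protein, was at 0.44 without a call. Of the other receptors *NOTCH2* had a log2 change of −0.17 (adjusted p = 0.0757; 0.0393 with a filter of 1 CPM, 0.0208 without scaling factors and 0.0467 without KSRi replicate 3), and part of its reads may be shared with the NOTCH2NL copies. *NOTCH4*, scarce in both groups (DMSO mean 0.12 CPM, KSRi mean 0.33 CPM), had a log2 change of 1.33 (adjusted p = 0.0305) that was lost without KSRi replicate 2 (adjusted p = 0.101), KSRi replicate 3 (0.0632), DMSO replicate 1 (0.0939) or DMSO replicate 3 (0.0523), and with DESeq2 (0.0640) or the replicate number as a block (0.0515).

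Genes that mature and cut the receptors went both ways, with 7 of 13 tested higher and 4 lower (median log2 change 0.33), where 54.1% of the calls over all genes were higher. The gamma-secretase subunits *APH1B* (log2 change 0.57, SE 0.07, edgeR adjusted p = 1.17e-05) and *NCSTN* (0.64, SE 0.12) rose, as did the protease *FURIN* (0.61, SE 0.11). The protease *ADAM10* fell (−0.29, SE 0.08, adjusted p = 0.00798), as did the glycosyltransferases *POGLUT1* (−0.40, SE 0.09), *POFUT1* (−0.29, SE 0.07) and *MFNG* (−0.29, SE 0.10), and these 4 were named after their values were seen. In the nuclear complex 7 of 19 tested genes fell and 2 rose (median −0.13), beside 18.7% and 22% over all genes. The corepressor *SPEN* fell (−0.54, SE 0.07, adjusted p = 2.56e-05), as did the NOTCH1 cofactor *ZMIZ1* (−0.41, SE 0.07) and the acetyltransferase *KAT2A* (−0.31, SE 0.07), while the corepressor *TLE4* rose (0.49, SE 0.06). Among genes of turnover and trafficking 3 of 16 rose and 2 fell (median −0.05), a smaller called share than the 40.7% over all genes. *MIB2*, a ubiquitin ligase for ligands, rose (0.58, SE 0.15), and *NEURL1*, another such ligase (−0.32, SE 0.08), and *CCNC*, the cyclin partner of CDK8 (−0.27, SE 0.07), fell. *AAK1*, an endocytic kinase, rose by 0.18 and lost its call in a fit of only these groups (adjusted p = 0.0698), without the filter (0.184) and without DMSO replicate 1 or 2 or KSRi replicate 2 or 3 (0.0886, 0.106, 0.0888 and 0.0897).

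A further list, called other targets, held genes described as NOTCH targets in T-ALL or thymocytes and the remaining HES and HEY family members listed. Its genes were mixed. Of 17 tested 7 fell and 2 rose (median −0.11), beside 7 of 10 and 0 of 10 among the genes above and 18.7% and 22% over all genes. *RHOU*, a small GTPase, fell from 119 to 56.7 CPM (edgeR log2 change −1.07, SE 0.07, adjusted p = 2.36e-09). *MYC* fell from 568 to 407 CPM (−0.48, SE 0.07, adjusted p = 2.90e-05). *HES6*, a HES-family member that opposes HES1 function, rose from 13.03 ± 0.558 to 44.2 ± 13.8 CPM (1.75, SE 0.17, adjusted p = 7.43e-07), and the complement receptor *CR2* rose from 6.84 to 11.6 CPM (0.75, SE 0.10, adjusted p = 2.97e-05). The long noncoding RNA *LUNAR1*, transcribed near *IGF1R* and described as an enhancer RNA of it, fell from 13.03 ± 0.980 to 9.83 ± 1.52 CPM (−0.39, SE 0.12, adjusted p = 0.0125), where the log2 change of *IGF1R* was −0.05. *LUNAR1* was named after its values were seen.

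Partners of the last 3 genes were read in the same way. Among genes of H/ACA proteins and their assembly, 5 of 7 fell and 0 rose (median −0.42), where 18.7% of all genes fell. They were led by the pseudouridine synthase *DKC1* (−0.81, SE 0.07, edgeR adjusted p = 2.07e-07) and *NAF1* (−0.51, SE 0.09). The assembly factor *RUVBL1* (−0.45, SE 0.10) and *GAR1* (−0.42, SE 0.08) followed. Of 10 pre-T-cell receptor partners and recombination genes 1 fell and 2 rose (median −0.04), a smaller called share than the 40.7% over all genes. *RAG1*, a recombinase subunit, fell from 191.5 to 103 CPM (−0.89, SE 0.08, adjusted p = 2.46e-07). *CD3E* rose (0.64, SE 0.18, adjusted p = 0.00834), and this was lost without KSRi replicate 2 (0.43, adjusted p = 0.0656). *TRBC1* rose by 0.28 (adjusted p = 0.0339), which was lost without any DMSO library (adjusted p = 0.0570 to 0.108), KSRi replicate 2 (0.0760) or KSRi replicate 3 (0.130), and it shares sequence with *TRBC2*. *CD3G* was at −0.16 (adjusted p = 0.0601), and under 6 alternatives it was called, with adjusted p = 0.0156 to 0.0487. Around *IGF1R* 4 of 6 tested genes rose and 0 fell (median 0.27), where 22% of all genes rose, and 3 of these 4 calls did not hold in every alternative. The insulin receptor gene *INSR* rose from 29.4 to 37.5 CPM (0.35, SE 0.08, adjusted p = 0.00185). The binding protein gene *IGFBP2* rose by 0.31 (adjusted p = 0.0136), a call lost without DMSO replicate 2 (0.0806), KSRi replicate 2 (0.0503) or KSRi replicate 3 (0.0577). *IGF2R* (adjusted p = 0.0474) and *GRB10* (adjusted p = 0.0491) were close to the threshold. *IGF2R* lost its call without any DMSO library or without KSRi replicate 2 or 3 (adjusted p = 0.0674 to 0.282), and with DESeq2, RLE factors, the filter of 1 CPM or only these groups (0.0503 to 0.118). *GRB10* lost its call without DMSO replicate 2 or 3 or KSRi replicate 1 or 3 (0.0539 to 0.204), and with DESeq2, limma-voom, RLE factors, no filter, no scaling factors or only these groups (0.0533 to 0.102).

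**Figure D3:**
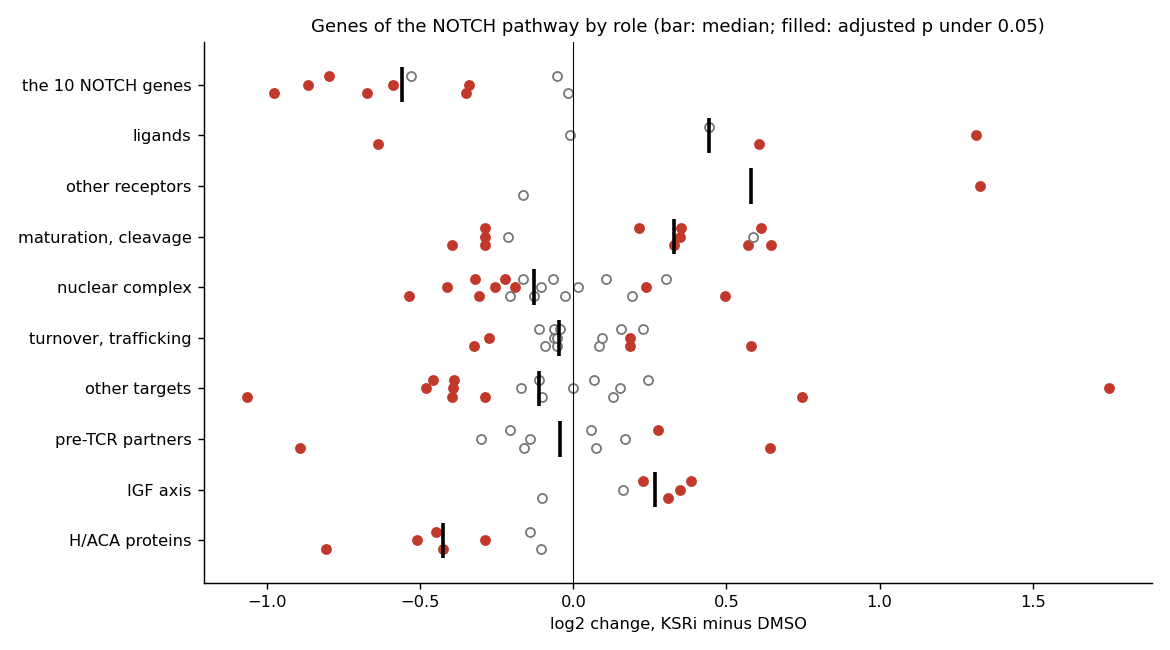
Log2 change between KSRi and DMSO of every tested gene in the lists, by role. Filled points passed the edgeR test at an adjusted p under 0.05, open points did not, and bars are medians. The 10 NOTCH genes (median −0.56) and the row of H/ACA proteins, which includes assembly factors (median −0.42), lie below 0 throughout. Maturation genes (median 0.33) and ligands (median 0.44) spread to both sides.

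With the guides, 0 of the genes in these 9 lists passed in any of the comparisons with NT or between guides by edgeR. Medians over the lists for the mean of both guides lay between −0.11 and 0.00, beside 0.00 over all tested genes. Against DMSO, 31.2% of all genes were lower and 34.6% higher in NT. NT was lower at 7 of 7 genes of H/ACA proteins and assembly (median −1.29) and 5 of 10 pre-T-cell receptor partners. In both lists 0 were higher. The other lists gave 6 lower and 3 higher of 13 in maturation, 9 and 4 of 19 in the nuclear complex, 8 and 4 of 16 in turnover, 4 and 4 of 17 among other targets, 1 and 3 of 6 around *IGF1R*, and 1 and 1 of the 2 other receptors. Ligands were higher at 4 of 5 and lower at 0 (median 0.88), of which *DLL1* differed most (0.40 CPM in DMSO and 4.96 CPM in NT).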

How the data were processed

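The table the authors deposited holds raw counts, as whole numbers for each Ensembl gene. Tools named in the submitters' processing notes are STAR 2.7.11b and DESeq2 1.42.1, with build GRCh38. Which program counted reads, its strand setting and its annotation release are not stated, so reads of antisense genes that overlap *NOTCH1*, *IGF1R* and *SHQ1* cannot be told apart from theirs. Columns were matched to samples by library name, and symbols were found for 61369 of 61541 genes. Positions and exon lengths are from GENCODE v29 (GRCh38), promoters from RefSeq (GRCh38.p14).

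Counts were tested with edgeR 4.0.16 (R 4.3.3): TMM factors, filterByExpr (18963 genes kept), 1 mean per group over all 14 libraries and the quasi-likelihood F test, adjusted by Benjamini-Hochberg over all tested genes. Standard errors follow the p-values, and intervals cover 95%. The code was tested on simulated data. The 10 genes, the lists and the tests were chosen with earlier results of these data known. Named were all 10 genes and, per list, up to 4 genes with the lowest p with the inhibitor, except 1 that is not reported here. Genes that passed only between the controls or in the difference of effects are given as counts, a departure from the planned naming. Alternatives were RLE factors, no filter, at least 1 CPM in 3 libraries, DESeq2 1.42.0, limma-voom (limma 3.58.1), only the groups compared, a replicate block, each library left out and, chosen after seeing the data, no scaling factors.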

Additional observations from a re-analysis of the deposited data

Results flagged for a closer look

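The inhibitor effect and the mean guide effect differed for 5 of the 10 NOTCH genes. This was the test of the difference itself (edgeR adjusted p under 0.05). Both effects start from controls that were far apart, so treatment and starting level cannot be told apart. The log2 difference, inhibitor effect minus guide effect, was −0.44 for *NOTCH1*, −0.37 for *NOTCH3*, −0.58 for *DTX1*, −1.11 for *PTCRA* and −0.81 for *SHQ1*.

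Of 33 other pathway genes 21 passed the same test, 13 with a higher and 8 with a lower value for the inhibitor, beside 28.6% of all tested genes. These 33 were chosen for a low p between KSRi and DMSO, whose libraries also enter this test, so the count is a description and supports nothing. Among ligands the difference was 1.32 for *DLL1*, −0.77 for *JAG1* and 0.61 for *JAG2*. In maturation and cleavage it was 0.78 for *FURIN*, 0.67 for *NCSTN* and 0.64 for *APH1B*. Nuclear complex and turnover genes gave −0.46 for *SPEN*, 0.59 for *TLE4*, −0.37 for *CCNC* and 0.27 for *AAK1*. The list of other targets and HES family members gave 1.85 for *HES6*, 0.49 for *CR2*, −1.07 for *RHOU* and −0.41 for *MYC*. The values were 0.36 for *IGF2R*, 0.30 for *INSR*, 0.51 for *IGFBP2*, 0.83 for *CD3E*, −0.67 for *RAG1*, −0.78 for *DKC1* and −0.56 for *NAF1*. Several of these calls did not hold when 1 library was left out. Without NT replicate 1 the adjusted p was 0.0848 for *JAG2*, 0.0609 for *NCSTN*, 0.0691 for *CCNC*, 0.0871 for *CD3E* and 0.055 for *IGFBP2*. *CD3E* also lost its call without KSRi replicate 2 (0.0636), and *CR2* without NT replicate 2 (0.161) or DMSO replicate 2 (0.0556). *AAK1* lost it without DMSO replicate 1 or 2, guide 1 replicate 3, KSRi replicate 2 or 3 or either NT library (0.0505 to 0.13), and without the filter (0.172). *IGF2R* lost it without any DMSO or NT library, guide 1 replicate 3, guide 2 replicate 2 or KSRi replicate 2 or 3 (0.0503 to 0.124). *INSR* lost it without any library other than KSRi replicate 1 and guide 2 replicate 3 (0.052 to 0.124), and without the filter (0.172).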

How the results depend on the processing

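The count of NOTCH genes called was 7 with the inhibitor, 0 in each guide comparison, 10 for NT against DMSO and 5 for the difference of effects. Over the alternatives other than leaving out a library it was 6 to 7, 0, 8 to 10 and 5. A filter of at least 1 CPM in 3 libraries left *HEY1* and *NRARP* untested. With the replicate block it was 7, 0, 9 and 5. Same-numbered libraries had deviations correlated at −0.184 to 0.111. With so few libraries per group this cannot show whether the numbers pair the samples. Leaving out 1 library gave 6 to 7 with the inhibitor, 9 to 10 for NT against DMSO and 3 to 5 for the difference of effects (3 without NT replicate 2). The fit of only the groups compared was not run for the difference of effects, which uses all groups. Without scaling factors the median log2 difference of all genes between NT and DMSO went from 0.04 to 0.31 and the share of higher calls from 52.6% to 69.9%, with the NOTCH genes still 9 lower and 1 higher. Over all genes the guide comparisons called 1, 2 and 3 genes for guide 1, guide 2 and their mean, 35, 35 and 41 without a filter, and 8, 5 and 7 with DESeq2. Guide 2 against guide 1 called 1, 13 and 2.

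Signs turned only for values that were not called, and the cause was not tested. *HEY1* for guide 2 was 0.02 and −0.08 with limma-voom. Leaving out 1 library gave, for guide 1 against NT, −0.010 to 0.177 for *NOTCH1*, −0.110 to 0.045 for *IGF1R* and −0.109 to 0.073 for *SHQ1*. For guide 2 against NT it gave −0.265 to 0.262 for *HEY1*, −0.043 to 0.112 for *IGF1R*, −0.014 to 0.143 for *NOTCH3*, −0.169 to 0.343 for *PTCRA* and −0.043 to 0.139 for *SHQ1*. The mean of both guides gave −0.046 to 0.112 for *NOTCH3*, −0.084 to 0.428 for *PTCRA* and −0.076 to 0.106 for *SHQ1*. Guide 2 against guide 1 gave −0.115 to 0.123 for *HES4*, −0.009 to 0.088 for *NOTCH1* and −0.188 to 0.141 for *NRARP*. The inhibitor gave −0.075 to 0.070 for *HES4*, and the difference of effects −0.129 to 0.025 for *IGF1R* and −0.15 to 0.30 for *TRBC1*.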
